A study of Zea mays with 144 samples.

Results

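Mid-microspore anthers were compared with early microspore anthers of the maize (Zea mays) inbred line Ky21. The comparison took every RNA pool labelled with either stage, 8 of the 24 pools of the series: 4 mid-microspore pools (2 of upper and 2 of lower florets) and 4 early microspore pools (2 of upper and 2 of lower florets). A maize spikelet carries an upper and a lower floret, and the anthers of each were staged by light microscopy. Each pool held RNA of 1 to 4 plants, with 8 to 20 anthers taken per tassel, so a pool may come from 1 plant or average over several. About 100 ng of total RNA per pool was amplified by T7 transcription, and amplified RNA labelled with Cy3 or Cy5 was hybridised in pairs to spotted cDNA arrays of 12160 features. Of 48 slides, 20 held a pool of either stage, 4 of them compared the stages directly and 8 compared the florets within a stage. Each slide had been scanned at low, medium and high intensity. Both pools of a slide came from 1 of 2 sets, numbered as in the labels, and set and floret were taken into account in the comparison.

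Microspores are the haploid products of male meiosis. After the tetrad stage the callose around them is dissolved, the single cells are released into the anther locule, and they enlarge while their outer wall, the exine, is built. The tapetum, the innermost layer of the anther wall, feeds the microspores and supplies lipid and phenolic precursors of the exine, and later degenerates, while starch is stored in the grain mainly after the microspore has divided. The samples were whole anthers, so that fewer cells of a type and less RNA per cell cannot be told apart in any value below.

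Pool values are on the log2 scale and centred so that the 12 pools within 1 set average 0, and a change is the mid-microspore minus the early microspore value. No absolute levels were measured. The 2 values given for a floret are those of pool 1 and pool 2. The direction of every change is likely and not settled, because no label states which dye was on top of the deposited ratio. Cy5 over Cy3 was assumed for slides that join different stages. Under this reading 3 of 4 meiosis gene features were lower and 0 higher in the last than in the first of the 6 stages. Their median log2 change was -1.14, against -0.01 for all features. Of all 12160 features, 2735 were called lower and 2631 higher between these 2 stages (44.1% together). The meiosis genes are the basis for the direction, and 4 features are a thin one. Turning the sign would exchange higher and lower throughout. The 4 direct slides, with 2 dye orientations, had r between 0.405 and 0.582 across features once read in one direction. The p-values below rest on differences between the 2 pools of each stage and floret over all 6 stages, which may be in part technical. The fit takes the pools as independent, although upper- and lower-floret pools of a set share slides. Within a stage, deviations of a set's upper and lower pools from their group means had r = 0.356 (early) and 0.212 (mid-microspore). The p-values for the florets averaged may therefore be too small.

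Between early and mid-microspore 2988 of 12160 features changed (24.6%), 1470 of them higher (12.1%) and 1518 lower (12.5%) at mid-microspore, by limma with a Benjamini-Hochberg adjusted p under 0.05. The median size of a called change was 1.61-fold. More than 2-fold, 343 features rose and 423 fell; more than 8-fold, 12 rose and 24 fell. The 4 mid-microspore pools did not overlap the 4 early microspore pools for 3007 features (24.7%), and 2314 of the called features were among these. Counts fell to 1954 without upper-floret early microspore pool 1 and to 1957 without lower-floret mid-microspore pool 1, and with each of the other pools left out they lay between 2241 and 2693. Across features the change in set 1 and that in set 2 had r = 0.684, and the pools of the sets are separate RNA. The sign was the same in all 4 pairs of set and floret for 2877 called features (96.3%), against 47.5% of all features. The calls were made on these same pools, so the higher share among called features follows in part from the selection and is no separate support.

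**Figure D1:**
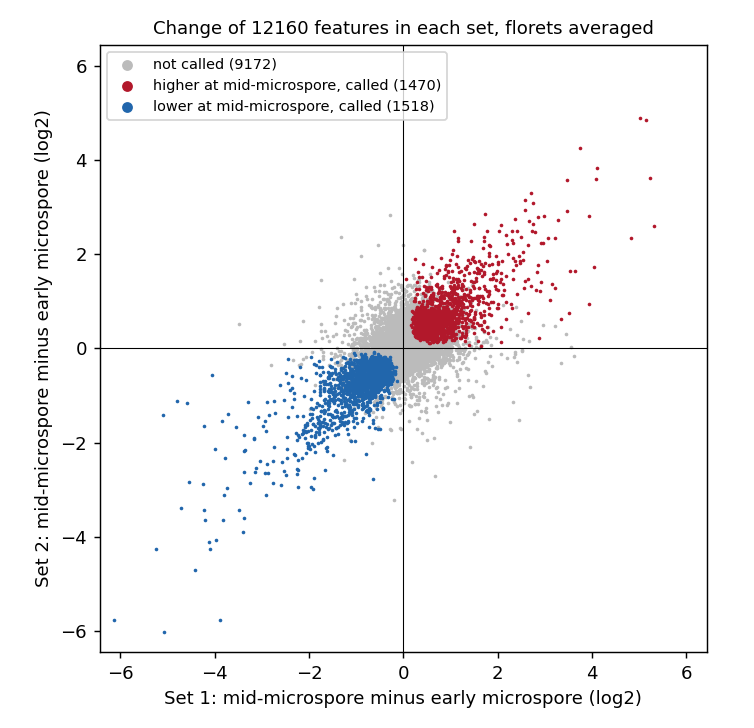
Change from early to mid-microspore in each of 12160 features, florets averaged, in set 1 (horizontal axis, log2) and set 2 (vertical axis, log2), each from 4 pools. Red points are the 1470 features called higher at mid-microspore, blue points the 1518 called lower and grey points the rest. The called features lie along the diagonal in both directions, which follows in part from calling them on these same pools.

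Both of the largest changes belonged to genes without a name in the annotation used. Feature 10981, from an unnamed gene on chromosome 4 of the RefSeq assembly, had pool values of 3.05 and 3.14 in upper and 3.29 and 3.15 in lower florets at mid-microspore, against -1.86 and -1.81 in upper and -2.08 and -1.59 in lower florets at early microspore. Its rise was 31.8-fold, with a log2 change of 4.99 ± 0.24 (SE) and an adjusted p of 5.10e-08. Feature 3414, from an unnamed gene on chromosome 7, had pool values of -0.28 and -1.12 in upper and -0.90 and -1.13 in lower florets at mid-microspore, against 4.90 and 4.53 in upper and 6.20 and 4.74 in lower florets at early microspore. It fell by 5.95 on the log2 scale (0.47, SE; adjusted p = 1.36e-06), a 62.0-fold difference. The 2 stages were far apart in every pool for both features. Of the called features, 1324 had no gene assigned and 313 had a named gene (167 higher and 146 lower). The named genes are taken below by what they do, and the share of a list that was called is to be read against the 24.6% of all features, of which about as many were higher as lower.

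Aldehyde dehydrogenases oxidise aldehydes to acids. In maize the family became known through rf2, a nuclear restorer of male fertility in a cytoplasm that makes anthers sterile, and it gave the largest named rise. Feature 8911 of aldh5 (rf2d) had pool values of 2.20 and 1.63 in upper and 2.85 and 1.70 in lower florets at mid-microspore, against -1.29 and -1.30 in upper and -1.53 and -0.99 in lower florets at early microspore. All mid-microspore pools lay above all early microspore pools, and the change was 3.37 ± 0.32 (SE), 10.4-fold (adjusted p = 5.57e-06). The second aldh5 feature, 344, rose as well, by 4.02-fold, with pool values of 0.99 to 1.50 at mid-microspore, against -0.79 to -0.40 at early microspore. Other members fell. Feature 9865 of aldh2 (rf2b) had pool values of -1.01 and -0.56 in upper and -1.64 and -0.86 in lower florets at mid-microspore, against 2.30 and 0.52 in upper and 2.15 and 1.39 in lower florets at early microspore, and its change was -2.61 ± 0.35 (SE), a 6.10-fold fall (adjusted p = 1.29e-04), while the other aldh2 features, 3945 and 11913, were not called (-0.24 and 0.25). Features of rf2 itself fell as well, by 1.42, 1.09 and 0.33 on the log2 scale (features 8328, 4999 and 5131), and a further one, feature 6042, stood at 0.02. Feature 8328 was not called without lower-floret mid-microspore pool 1 (log2 change -1.17). Nor was it called in the medium scan alone (-0.77) or with the scans scaled to one spread. In the family as a whole, 3 of 12 features were called higher and 4 lower (58.3% together), with a median log2 change of 0.04 (all features: 0.04). The members thus moved in opposite directions, with aldh5 and ALDH10A5, also named AMADH2 (0.79), on one side and aldh2 and rf2 on the other.

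In sugar metabolism SPS encodes sucrose phosphate synthase, which makes sucrose, and its feature 8449 had pool values of 1.72 and 1.74 in upper and 1.93 and 1.31 in lower florets at mid-microspore, against 0.05 and 1.40 in upper and -1.54 and -0.90 in lower florets at early microspore. The rise was 1.92 ± 0.28 (SE), 3.78-fold (adjusted p = 2.76e-04), but upper-floret early microspore pool 2 reached into the range of the mid-microspore pools, and the size differed between scans (3.63, 1.15 and 0.97 in the low, medium and high scan alone). With the 4 direct slides alone SPS was not called. Amy2 (BMY1), a beta-amylase that releases maltose from starch, had pool values of 1.37 and 1.06 in upper and 2.83 and 0.89 in lower florets at mid-microspore, against -0.33 and -0.26 in upper and -1.27 and -0.21 in lower florets at early microspore (feature 8001), without overlap, and rose 4.16-fold (2.06 ± 0.46 (SE); adjusted p = 0.00466). Sucrose synthase ss2 (sus1), which splits sucrose, fell. Its feature 11138 had pool values of 0.27 and 0.17 in upper and -0.29 and 0.19 in lower florets at mid-microspore, against 1.68 and 1.51 in upper and 1.91 and 2.01 in lower florets at early microspore, a change of -1.69 ± 0.14 (SE) (adjusted p = 1.82e-06), and features 4318, 7358, 6902 and 11207 of the same gene changed by -1.44, -1.44, -1.40 and -1.03. Only feature 9109 of the 6 ss2 features was not called (-0.07). In the high scan alone the ss2 change was smaller in all 5 features. It was -0.65 for feature 11138, -0.47 for 6902, -0.12 for 7358, -0.0082 for 11207 and -0.11 for 4318. In that scan feature 11138 was still called and 4318 was not, and calls of 6902, 7358 and 11207 are not reported. Over starch and sucrose genes, 3 of 18 features were called higher and 7 lower (55.6% together), with a median log2 change of -0.20; 5 of the 7 lower features are the one gene ss2, and the others are frk1, a fructokinase, and ae1, a starch branching enzyme. The phosphoenolpyruvate carboxykinase pck2, an enzyme of sugar synthesis from organic acids, had pool values of 2.79 and 1.69 in upper and 1.04 and 2.06 in lower florets at mid-microspore, against 0.46 and 1.22 in upper and -1.27 and -0.43 in lower florets at early microspore (feature 7774). Its rise was 3.74-fold (1.90 ± 0.37 (SE); adjusted p = 0.00196), with upper-floret early microspore pool 2 above lower-floret mid-microspore pool 1, and its second feature, 754, was not called (0.63, adjusted p = 0.0619).

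Among cell wall genes, 8 of 29 features were called higher and 3 lower (37.9% together), with a median log2 change of 0.16. The 2 largest rises were those of GPRP and prp2, whose names mark proline-rich proteins. GPRP (feature 3483) had pool values of 1.92 and 1.92 in upper and 1.73 and 1.80 in lower florets at mid-microspore, against 0.01 and 0.78 in upper and -0.29 and 0.03 in lower florets at early microspore, a 3.27-fold rise (adjusted p = 4.74e-04) without overlap, although in the high scan alone it was 0.52 and not called. prp2 (feature 7309) rose 2.70-fold, with pool values of 0.45 to 1.43 at mid-microspore, against -0.74 to -0.17 at early microspore, and likewise was not called in the high scan alone (1.00). The other called rises included the cellulose synthase genes CesA-2 (0.79), CesA-6 (0.58), CesA-4 (0.42) and CesA-1 (0.35). A further one, Agp2 (0.54), matched the list by its symbol but is also named Agpsemzm, a subunit of the enzyme that makes ADP-glucose for starch. The 3 falls were those of cesa10, 1.23 lower on the log2 scale but -0.18 and not called in the low scan alone, the expansin expa1, which loosens walls, with pool values of -0.62 to -0.12 at mid-microspore, against 0.47 to 0.88 at early microspore, and the expansin EXPB11, with -0.32 to -0.02 at mid-microspore, against 0.27 to 0.42 at early microspore. With 1 pool left out, 3 to 8 features were called higher and 3 lower.

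Jasmonate is made in several steps from a plastid fatty acid, and maize plants without it form pistils in the tassel. Among its genes, 3 of 24 features were called higher and 4 lower (29.2% together), with a median log2 change of 0.06. lox3, a lipoxygenase matched to the list by its symbol, belongs to the class of these enzymes that does not lead to jasmonate. It had pool values of -0.42 and 0.23 in upper and -0.86 and -0.58 in lower florets at mid-microspore, against 0.75 and 0.48 in upper and 0.88 and 0.71 in lower florets at early microspore and changed by -1.11 ± 0.18 (SE). The allene oxide synthase aos1 had 1 feature lower (-0.67, feature 2555) and 1 not called (0.24, feature 641). Near the end of the path, the oxophytodienoate reductase opr8 (feature 4245) had pool values of 1.10 and 1.46 in upper and -0.06 and 0.48 in lower florets at mid-microspore, against -0.81 and -0.69 in upper and -1.08 and -1.17 in lower florets at early microspore. That is a rise of 3.20-fold (1.68 ± 0.19 (SE); adjusted p = 3.16e-05), with the 2 upper-floret mid-microspore pools above the 2 lower-floret ones. Of the repressors of the jasmonate response, TIFY23 rose by 1.21 (low, medium and high scan alone: 2.62, 0.74 and 0.26, the call being lost in the medium and high scans) and JAZ9 fell, with pool values of -2.10 to -1.24 at mid-microspore, against -0.82 to -0.12 at early microspore.

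Of the lipid metabolism genes, 2 of 15 features were called higher and 4 lower, with a median log2 change of 0.16. The plastid desaturase fad7 rose 2.58-fold, with pool values of 0.24 to 1.62 at mid-microspore, against -1.07 to -0.35 at early microspore. CER1, of wax synthesis, was also called higher (0.40). The falls included Agpat4 (-0.79), an acyltransferase of glycerolipid synthesis, the phospholipase PLD1 (-0.74) and the acyl carrier protein acp in both features (-0.35 and -0.52, the second being -0.13 and not called in the high scan alone). The 4 features of lipid transfer proteins, which carry lipids through the wall and are abundant in anthers, had 0 calls and a median of 0.28.

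**Figure D2:**
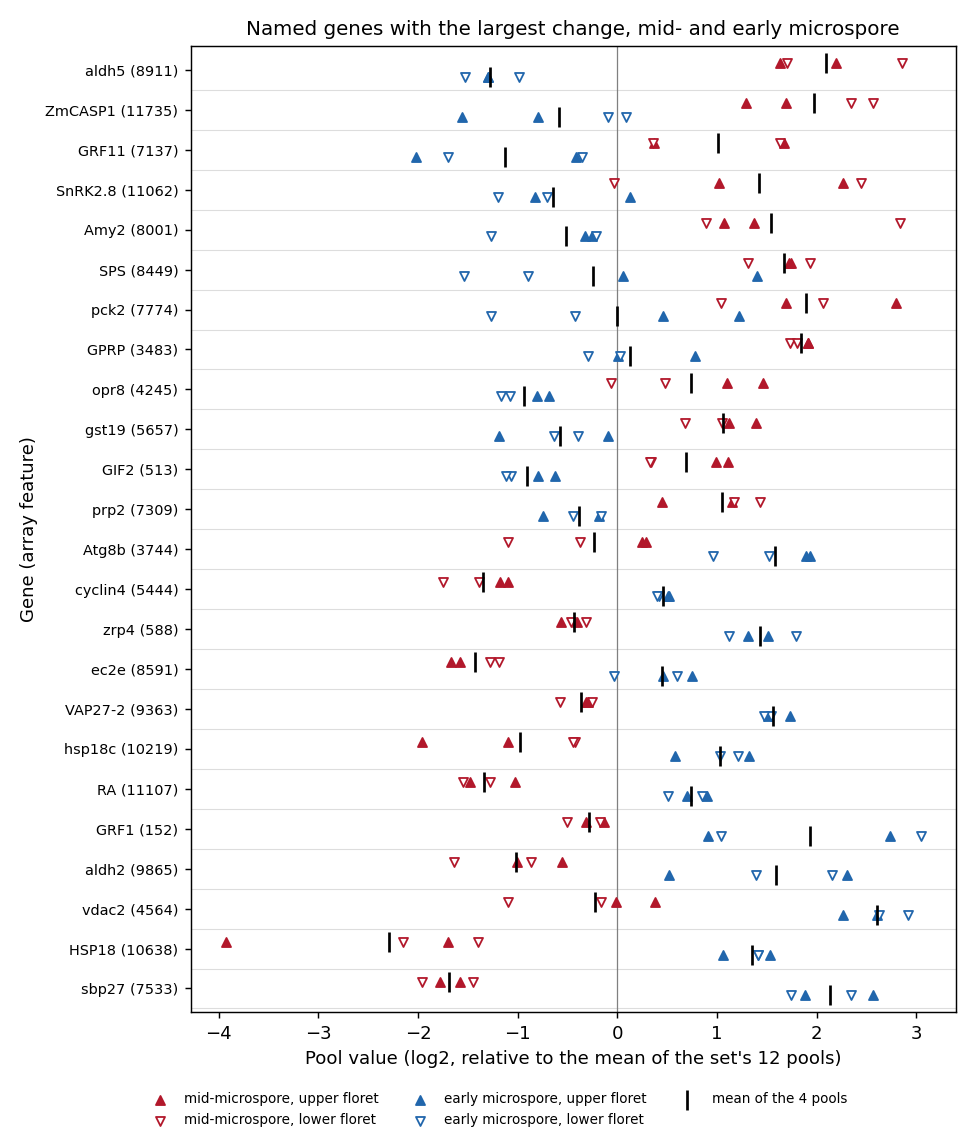
Pool values (log2, centred within each set) of the 24 named genes with the largest change, 12 higher and 12 lower at mid-microspore. Red symbols are the 4 mid-microspore pools and blue symbols the 4 early microspore pools, filled for upper and open for lower florets, and short black lines are means of 4 pools; for SnRK2.8, SPS and pck2 the red and blue ranges overlap.

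Small heat shock proteins, which bind unfolding proteins, gave some of the largest falls. Feature 10638 of HSP18 had pool values of -1.70 and -3.93 in upper and -2.15 and -1.40 in lower florets at mid-microspore, against 1.53 and 1.06 in upper and 1.41 and 1.41 in lower florets at early microspore. Its fall was 12.5-fold (-3.65 ± 0.40 (SE); adjusted p = 1.98e-05), with upper-floret mid-microspore pool 2 lowest by far, and without that pool the log2 change was -3.04. In the high scan alone it was -2.78. Feature 2768 of HSP18 fell 7.98-fold, with pool values of -2.45 to -1.37 at mid-microspore, against 0.48 to 1.54 at early microspore, and hsp18c (feature 10219) fell 4.04-fold, with -1.96 to -0.42 at mid-microspore, against 0.58 to 1.32 at early microspore. The groups did not overlap in any of the 3. Features of hsp18f (-0.57 and 0.24) and hsp22 (-0.13 and 0.27) were not called, so 0 of 7 features were called higher and 3 lower (42.9% together), with a median log2 change of -0.57. Of the other chaperones, 2 of 26 features were called higher and 5 lower (26.9% together), with a median log2 change of -0.08. The disaggregase hsp101 had pool values of -1.27 to -0.46 at mid-microspore, against 0.15 to 0.65 at early microspore and fell 2.31-fold. The endoplasmic protein disulphide isomerase pdi fell in both its features (-0.93 and -0.79, with upper-floret pools overlapping between the stages), whereas all 8 features of hsp70-4, a general chaperone, lay between -0.24 and 0.04 and were not called. CRH, a calreticulin of the endoplasmic reticulum, was called lower (-1.60), but it was 0.22 in the low scan alone and stood at the most frequent value of that scan on 18 of 20 slides.

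In mitochondrial energy metabolism, 5 of 29 features were called higher and 5 lower (34.5% together), with a median log2 change of 0.07. The outer membrane channel vdac2 (feature 4564) had pool values of 0.37 and -0.01 in upper and -1.10 and -0.17 in lower florets at mid-microspore, against 2.60 and 2.26 in upper and 2.92 and 2.62 in lower florets at early microspore. The difference was 7.10-fold (-2.83 ± 0.24 (SE); adjusted p = 2.67e-06), and the groups lay far apart, though in the high scan alone the change was -1.94. A subunit of pyruvate dehydrogenase, pdh2, fell in both features, 3.17-fold for feature 3379 (pool values of -1.54 to -1.14 at mid-microspore, against 0.05 to 0.57 at early microspore) and 2.00-fold for feature 1509, whose call was lost without any 1 of 3 pools: upper-floret early microspore pool 1, upper-floret mid-microspore pool 2 and lower-floret mid-microspore pool 2 (log2 change down to -0.79, adjusted p up to 0.0660). Of the 5 rises, csy1, matched to the list by its symbol, is also named SECY, a translocase of the chloroplast (0.81). The others were ATP synthase subunits atp1 and atp3 (1 feature each, 0.36 and 0.34), ZCYB, also named Zmb561 (0.56), and LDH (0.41, feature 10814, the other LDH feature being -0.59 and not called).

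Photosynthesis genes were measured in 29 features, of which 2 were called higher and 5 lower (24.1% together), with a median of 0.12. Rubisco activase, RA (rca1), had pool values of -1.03 and -1.48 in upper and -1.28 and -1.55 in lower florets at mid-microspore, against 0.90 and 0.70 in upper and 0.85 and 0.51 in lower florets at early microspore (feature 11107) and fell 4.21-fold (-2.08 ± 0.18 (SE); adjusted p = 2.67e-06), with every pool of a stage close to the others and a change of -1.36 in the high scan alone. NADP-malic enzyme ME1 fell in both features (-0.95 and -0.79) and the antenna protein cab-m1 in feature 7132 (-0.86) but not in feature 8159 (0.31). The call of cab-m1 was lost without pool 1 of early microspore upper or of early microspore lower florets (adjusted p up to 0.0590). Rubisco itself went the other way: rbcS, its small subunit, rose in feature 9047 (2.19-fold, pool values of 0.65 to 1.41 at mid-microspore, against -0.79 to 0.42 at early microspore), and feature 6927 of the same gene (0.54) and feature 2941 of a second rbcS gene (0.59) were not called.

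Transcription factors were the longest list. Of 112 features, 13 rose and 11 fell (21.4% together), with a median of 0.06; 5 of the features, of GF14-6, GF14-12 and hsbp1, were matched by a synonym and are not of transcription factors. Without lower-floret mid-microspore pool 1 the counts were 6 and 7, and without upper-floret early microspore pool 1 they were 5 and 10. The largest named fall of all was that of sbp27, of the SBP family of plant transcription factors. Its feature 7533 had pool values of -1.58 and -1.78 in upper and -1.96 and -1.45 in lower florets at mid-microspore, against 2.56 and 1.88 in upper and 2.34 and 1.75 in lower florets at early microspore. The fall was 14.2-fold (-3.82 ± 0.33 (SE); adjusted p = 2.56e-06), all 4 pools of a stage were alike, and the change was -6.45, -2.77 and -2.26 in the low, medium and high scan alone. A second sbp27 feature, 9659, was not called (0.42, adjusted p = 0.370).

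Growth-regulating factors, plant transcription factors best known for promoting cell proliferation in leaves, moved in both directions. GRF1 (feature 152) had pool values of -0.31 and -0.14 in upper and -0.50 and -0.18 in lower florets at mid-microspore, against 2.73 and 0.91 in upper and 3.04 and 1.04 in lower florets at early microspore. It fell 4.64-fold (adjusted p = 0.00180), with pool 1 of each floret about 2 log2 units above pool 2 at early microspore, and in the high scan alone the change was -1.39. GRF14 (-1.20), GRF12 (-0.91) and GRF2 (-0.87) fell as well. GRF11 (feature 7137) rose, with pool values of 1.67 and 0.37 in upper and 1.63 and 0.36 in lower florets at mid-microspore, against -2.02 and -0.41 in upper and -1.70 and -0.36 in lower florets at early microspore, a change of 2.13 ± 0.57 (SE) (adjusted p = 0.0140). The rise was largest in set 1: it was no longer called with the 4 direct slides alone, nor without pool 1 of either floret at either stage (log2 change 1.69 to 2.57 with 1 pool left out, adjusted p up to 0.0794), and it was 4.29, 1.05 and 1.05 in the low, medium and high scan alone. GIF2, named as a partner protein of these factors, rose 3.02-fold in feature 513, with pool values of 0.99 and 1.11 in upper and 0.33 and 0.33 in lower florets at mid-microspore, against -0.80 and -0.63 in upper and -1.07 and -1.12 in lower florets at early microspore (adjusted p = 8.07e-06), and by 0.51 in feature 5163. Among other families, WRKY43 (1.13), bHLH172 (1.07) and the homeodomain gene ocl5 (1.06) rose and HB55 (-0.77) fell. bZIP45 was called higher (1.24), though not in the low or high scan alone.

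Protein kinases and phosphatases had 8 of 27 features higher and 4 lower (median 0.10), with 4 to 8 higher when 1 pool was left out. The fewest, 4, came without upper-floret early microspore pool 1. Both rises of SnRK2 genes, kinases of the response to abscisic acid and drought, were among them. SnRK2.8 (feature 11062) had pool values of 1.02 and 2.26 in upper and -0.03 and 2.44 in lower florets at mid-microspore, against -0.83 and 0.13 in upper and -1.19 and -0.70 in lower florets at early microspore. Its change was 2.07 ± 0.49 (SE) (adjusted p = 0.00689), but lower-floret mid-microspore pool 1 lay within the early microspore range; without that pool the log2 change was 2.75, and without lower-floret mid-microspore pool 2 it was 1.40. In the low scan alone SnRK2.8 was not called (2.88). SnRK2.6 (feature 10412) rose 1.84-fold, with pool values of 0.51 to 0.77 at mid-microspore, against -0.48 to 0.03 at early microspore. WNK6 (-1.03), Pti1d (-0.69) and CDPK, a calcium-dependent kinase (2 features, -0.66 and -0.64), fell.

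Of 35 cytoskeleton features of 14 genes, 15 were called higher, 0 lower and 20 not, 42.9% against 24.6% of all features, with a median of 0.26 against 0.04. The changes were small, none above 1.84-fold. The alpha-tubulin tua6 (feature 11593) had pool values of 0.54 and 0.67 in upper and 0.40 and 0.41 in lower florets at mid-microspore, against -0.26 and -0.32 in upper and -0.37 and -0.57 in lower florets at early microspore and rose 1.84-fold (0.88 ± 0.13 (SE); adjusted p = 2.03e-04). The actin-binding proteins profilin, PRO4, rose in both features (0.64 and 0.49), and Villin-2 rose by 0.55, while TUA2 rose in 4 features (0.31, 0.42, 0.44 and 0.50). Single calls depended on single pools: with any 1 pool left out 7 to 10 features were called higher, and 1 was called lower without lower-floret mid-microspore pool 1. The fewest, 7, came without upper-floret early microspore pool 1, lower-floret early microspore pool 2, upper-floret mid-microspore pool 2 or lower-floret mid-microspore pool 1. Villin-2 was not called without any 1 of 5 pools (adjusted p up to 0.101, lowest log2 change 0.47) and TUA2 feature 10075 without any 1 of 6 (up to 0.0911, lowest 0.43). Tubulin and actin genes are near copies of each other, and a cDNA spot can bind the RNA of several, so the features are not independent. In the high scan alone 5 features were called higher, with the scans scaled to one spread 8, and with the 4 direct slides alone 3.

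**Figure D3:**
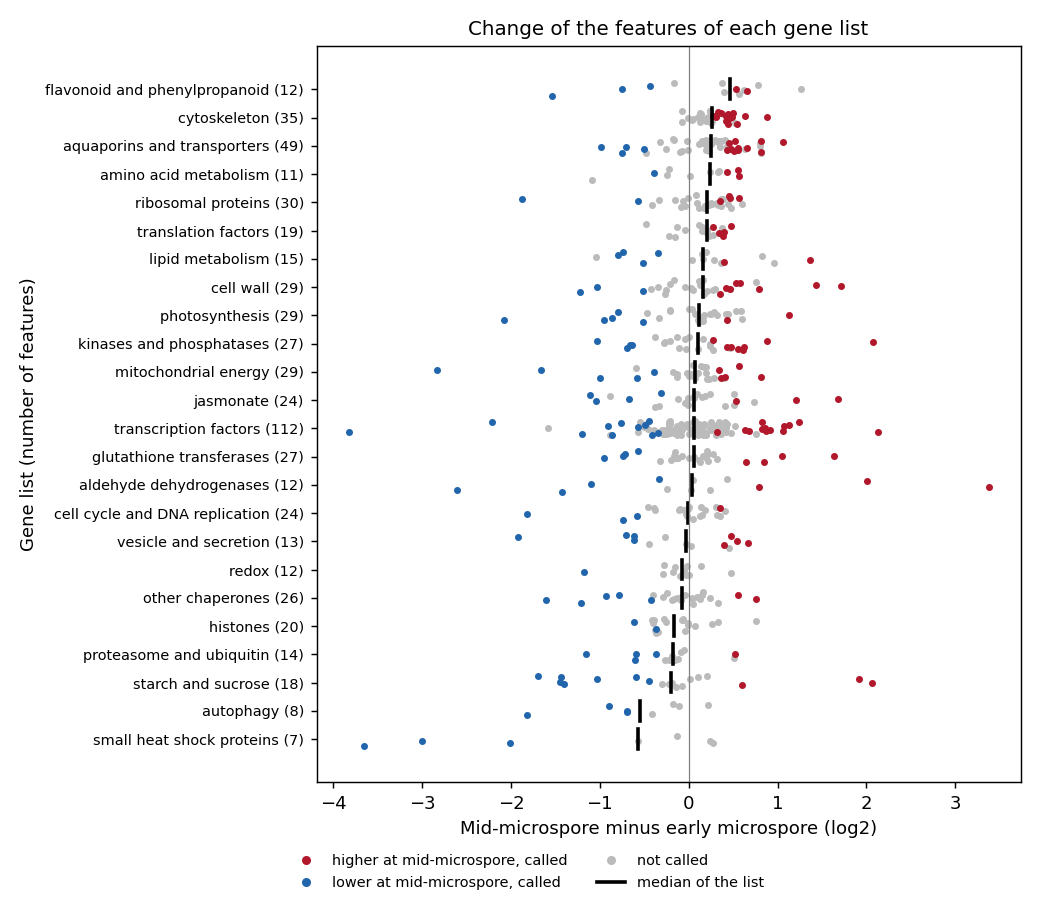
Log2 change from early to mid-microspore, florets averaged, of every feature in each gene list of 7 or more features (points, spread vertically for view), with the median of the list as a black line. Red and blue points passed the test higher and lower at mid-microspore; the cytoskeleton list has 15 red and 0 blue points, the autophagy list 4 blue and 0 red.

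Aquaporins and transporters had 11 of 49 features called higher and 4 lower (30.6% together), with a median of 0.25. PIP1-1, an aquaporin of the plasma membrane, rose in 4 of its 6 features, by 0.43 to 0.55. The proton-pumping pyrophosphatase of the vacuole, H+-PPase, had pool values of 0.17 and -0.04 in upper and 0.17 and -0.30 in lower florets at mid-microspore, against -1.05 and -0.50 in upper and -0.94 and -0.77 in lower florets at early microspore in feature 7018 and rose 1.76-fold (adjusted p = 0.00277), feature 3332 rose by 0.81, and feature 6196 was not called (0.20). PIP2-1 (feature 700) was called higher (1.07), but mainly from the low scan (2.51, 0.35 and 0.34 in the low, medium and high scan alone) and not without early microspore pool 1 of either floret or lower-floret mid-microspore pool 1 (adjusted p up to 0.0814; log2 change 0.77 at the lowest). The aquaporins tip1 (1 of 3 features, -0.98), NIP3-1 (-0.75) and PIP2-6 (-0.50) and the potassium antiporter gene KEA2 (-0.71) fell; the tip1 call was lost without any 1 of 5 pools (log2 change -0.61 at the smallest, adjusted p up to 0.121).

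Of the genes of vesicle traffic and secretion, 4 of 13 features were called higher and 4 lower (61.5% together), with a median log2 change of -0.03. VAP27-2, named for a family of membrane contact proteins, had pool values of -0.30 and -0.32 in upper and -0.57 and -0.26 in lower florets at mid-microspore, against 1.74 and 1.51 in upper and 1.55 and 1.47 in lower florets at early microspore (feature 9363), a fall of 3.80-fold (-1.93 ± 0.16 (SE); adjusted p = 1.62e-06).

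Autophagy encloses parts of the cell in membranes for breakdown, and Atg8 proteins coat those membranes. Of 8 autophagy features 4 were called lower and 0 higher, with a median of -0.55, and all 4 are of Atg8 genes. Atg8b (feature 3744) had pool values of 0.25 and 0.29 in upper and -1.10 and -0.37 in lower florets at mid-microspore, against 1.89 and 1.93 in upper and 0.96 and 1.52 in lower florets at early microspore. It fell 3.52-fold (-1.81 ± 0.23 (SE); adjusted p = 9.04e-05), and the lower florets lay below the upper florets at both stages. Atg8d fell in both features (-0.90 and -0.69) and Atg8e in 1 of 2 (-0.69 and 0.22, the second not called), while Atg12 (-0.17) and atg9 (-0.11) were not called. With 1 pool left out 4 to 5 of the 8 were called lower. In the ubiquitin system, which marks proteins for breakdown, 1 of 14 features was called higher and 4 lower (35.7% together), with a median log2 change of -0.18. Rbx1, a subunit of ubiquitin ligases, had pool values of -0.79 to -0.47 at mid-microspore, against 0.32 to 0.80 at early microspore and fell 2.22-fold (adjusted p = 1.25e-04). The conjugating enzymes ubc7 and UCE, both at -0.60, were each not called without upper-floret early microspore pool 1, lower-floret early microspore pool 2 or lower-floret mid-microspore pool 1, and ubc7 also not without lower-floret early microspore pool 1 or upper-floret mid-microspore pool 1 (adjusted p up to 0.117 and 0.0634, smallest log2 changes -0.46 and -0.47).

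Of the cell cycle and DNA replication genes, 1 of 24 features was called higher and 3 lower (16.7% together), with a median log2 change of -0.01. The list is read with the division of the microspore in mind, which comes after the stages compared. cyclin4 (feature 5444) had pool values of -1.10 and -1.18 in upper and -1.38 and -1.75 in lower florets at mid-microspore, against 0.52 and 0.50 in upper and 0.42 and 0.40 in lower florets at early microspore. The fall was 3.52-fold (-1.81 ± 0.17 (SE); adjusted p = 5.57e-06), with 4 near-equal early microspore pools, and in the low scan alone the change was -2.76. pcna2, the sliding clamp of DNA synthesis, fell in feature 8499 (pool values of -0.17 to 0.04 at mid-microspore, against 0.43 to 0.60 at early microspore) and not in features 6451 and 1399 (-0.11 and 0.13). mad2, of the spindle checkpoint, was called lower (-0.73, adjusted p = 0.0488) and KIN1 higher (0.36, adjusted p = 0.0466), both close to the threshold and lost when any 1 of 5 and any 1 of 8 pools was left out (adjusted p up to 0.223 and 0.138). Histone features numbered 20, with 0 higher, 2 lower and a median of -0.17, and both calls (his1a, -0.61 and -0.37) were lost without upper-floret early microspore pool 1 or lower-floret mid-microspore pool 2, and that of feature 7370 also without lower-floret early microspore pool 1 or upper-floret mid-microspore pool 1 (adjusted p up to 0.0686 and 0.133).

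Protein synthesis genes had few calls beyond small changes. Ribosomal proteins had 4 of 30 features higher and 2 lower (median 0.21), and translation factors 5 of 19 higher and 0 lower (median 0.21). The larger fall was that of ec2e (rpl39), with pool values of -1.57 and -1.67 in upper and -1.28 and -1.19 in lower florets at mid-microspore, against 0.46 and 0.75 in upper and -0.03 and 0.60 in lower florets at early microspore in feature 8591 and a change of -1.87 ± 0.20 (SE) (adjusted p = 1.35e-05). This feature stood at the most frequent value of the low scan on 11 of 20 slides, its change was -2.75, -1.74 and -1.13 in the low, medium and high scan alone, and the second ec2e feature, 2086, was not called (-0.04). rps4 fell by 0.57 in feature 11837, and rps12 rose by 0.57. The translation factor calls (eif3, tif-4A3 and EF1-A, 0.28 to 0.47) fell to 0 without upper-floret early microspore pool 1 or lower-floret mid-microspore pool 1. In amino acid metabolism, 3 of 11 features were called higher and 1 lower (36.4% together), with a median log2 change of 0.25, the highest being sam2, an S-adenosylmethionine synthetase (0.57 in feature 10653), and AHAS108 (0.56). The sam2 call was lost without any 1 of 4 pools (adjusted p up to 0.0974), that of AHAS108 without lower-floret mid-microspore pool 1 (0.0607) and the fall of ak1 (-0.39) without any 1 of the 8 (up to 0.162).

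Phenolic metabolism supplies pigments, lignin and exine precursors. Of the flavonoid and phenylpropanoid genes, 2 of 12 features were called higher and 3 lower (41.7% together), with a median log2 change of 0.46. The balance depended on the processing: 6 were higher and 2 lower with the 8 pools fitted alone, and 5 were higher with the median of the 3 scans, with the floret slides turned by the dyes or without the features that vary most between scans. Without upper-floret early microspore pool 1 there was 1 call in each direction. PAL1, which opens the pathway, rose by 0.66 in feature 312 (0.35 and not called in the high scan alone), and chalcone synthase c2, which opens the flavonoid branch, by 0.53 in feature 10186, a call lost without any 1 of 7 pools (adjusted p up to 0.154) and in the high scan alone (0.04). The 3 lower features were those of CHI, chalcone isomerase (-0.44), A1, dihydroflavonol reductase (-0.75, lost without upper-floret early microspore pool 1, adjusted p = 0.0621), and bronze-2, the glutathione transferase of anthocyanin transport. bronze-2 had pool values of -0.11 and -0.39 in upper and -0.61 and -0.17 in lower florets at mid-microspore, against 1.60 and 1.25 in upper and 0.67 and 1.37 in lower florets at early microspore (feature 5231) and fell 2.91-fold (adjusted p = 0.00277), with a log2 change of -2.21 in the low scan alone. zrp4, an O-methyltransferase first described from roots, had pool values of -0.57 and -0.40 in upper and -0.32 and -0.46 in lower florets at mid-microspore, against 1.51 and 1.31 in upper and 1.12 and 1.79 in lower florets at early microspore (feature 588). It fell 3.65-fold (-1.87 ± 0.35 (SE); adjusted p = 0.00159), and its other feature, 10901, by 1.26 on the log2 scale.

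Glutathione transferases, which detoxify by adding glutathione, had 4 of 27 features higher and 4 lower (29.6% together, median 0.06). gst19 (feature 5657) had pool values of 1.39 and 1.12 in upper and 0.68 and 1.05 in lower florets at mid-microspore, against -1.19 and -0.09 in upper and -0.64 and -0.39 in lower florets at early microspore, without overlap, and rose 3.11-fold (adjusted p = 0.00345; low, medium and high scan alone: 2.44, 1.38 and 1.09), but was not called with the 4 direct slides alone. gst31 (1.05, not called in the medium scan alone), gst18 (0.85) and gst7 (0.65) rose in 1 feature each, and gst1 fell in 2 (-0.74 and -0.57). gst28, at -0.95 in feature 4841, was not called without any 1 of 7 pools (adjusted p up to 0.194). Of 12 redox features, sod2, a cytosolic superoxide dismutase, was the single call, with pool values of -1.37 to -0.37 at mid-microspore, against 0.13 to 0.47 at early microspore in feature 10567. ZmCASP1 (feature 11735), outside the lists, had pool values of 1.29 and 1.69 in upper and 2.57 and 2.34 in lower florets at mid-microspore, against -0.79 and -1.56 in upper and -0.09 and 0.09 in lower florets at early microspore. Its rise was 5.91-fold (2.56 ± 0.32 (SE); adjusted p = 7.15e-05), without overlap, and the change was 3.67, 2.03 and 1.99 in the low, medium and high scan alone.

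Markers of cell types gave few values. Of the meiosis genes, which are active before the stages compared, afd1, the cohesin REC8 that holds sister chromatids together, was the single call: it rose 2.19-fold, with pool values of 0.55 and 0.54 in upper and 0.63 and 0.81 in lower florets at mid-microspore, against -0.44 and -0.38 in upper and -0.46 and -0.73 in lower florets at early microspore (adjusted p = 5.12e-05). ZYP1 (-0.72), rad51a (0.58) and Rad51A2 (-0.19) were not called. The single tapetum gene measured, ms23, stood at 0.18 (not called). Of the 7 features in the later pollen list, EXPB11 fell, and the 3 of PG14, a pollen polygalacturonase, were not called (-0.42, -0.25 and 0.76). Feature 9205 was not called either (-0.07). Both features of PRO4 rose, but the profilins set as pollen markers were PRO1, PRO2 and PRO3, so PRO4 is not read as a marker of pollen. With PRO4 the list had 2 features called higher and 1 lower (42.9% together). The 4 features of kernel genes, from a tissue not sampled, had 0 calls. Ratios between pools do not show whether a marker is present, so the labelled stages could not be checked by level, and the part of a change in cell make-up was not tested.

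Each floret was also tested alone, with 2 pools a side. In upper florets alone 1067 features were called, 460 higher (3.78%) and 607 lower (4.99%), and in lower florets alone 1704, 758 higher (6.23%) and 946 lower (7.78%). Leaving out 1 pool took the upper-floret count to between 328 (without early microspore pool 1) and 622 (without early microspore pool 2), with 540 and 429 without mid-microspore pools 1 and 2. For lower florets it was 519 without mid-microspore pool 1, 655 and 862 without early microspore pools 1 and 2, and 1234 without mid-microspore pool 2. The difference of the change between upper and lower florets, tested itself, was called for 0 features (0.00%). At an unadjusted p under 0.05 there were 295 (2.43%), and without lower-floret mid-microspore pool 2 there were 15 calls, all lower in upper florets. Across features the upper and lower changes of a set had r = 0.776 in set 1 and 0.717 in set 2, and pools of a set are linked by floret slides. Of the 24 genes with the largest changes, SPS differed most between florets, with a log2 change of 1.00 in upper and 2.84 in lower florets. That difference was -1.83 ± 0.57 (SE), with an unadjusted p of 0.00614 and an adjusted p of 1.000, so it did not pass. The 2.43% is a smaller share than an unadjusted p under 0.05 gives by chance alone, so the test of the floret difference may be too strict. The reason was not tested. A missing call does not show that the florets change alike.

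The change was then set against its neighbours in time. From tetrad to early microspore 2121 features were called (17.4%), and from mid- to mid/late microspore 472 (3.88%). The root mean square log2 change was 0.587 from early to mid-microspore, against 0.472 for the interval before and 0.361 for the one after. These intervals share pools, so their difference was tested in 1 fit for each feature. From early to mid-microspore 2019 features changed otherwise than from tetrad to early microspore (16.6%), with 824 left without upper-floret early microspore pool 1 and 1116 without lower-floret early microspore pool 2. For 809 features the change differed from that between mid- and mid/late microspore (6.65%). Here the count was 497 without upper-floret early microspore pool 1 and between 338 and 516 without 1 of the 4 mid-microspore pools.

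The genes with the largest of these differences are described by 3 courses, drawn up after their values were seen. From tetrad to mid/late microspore, vdac2, GRF1 and ss2 were highest at early microspore. Averaged over florets, vdac2 stood at -0.21 in tetrads, 2.60 at early, -0.23 at mid- and -1.08 at mid/late microspore, so that its change minus that of the interval before was -5.64 (adjusted p = 2.84e-06). GRF1 (-0.36, 1.93, -0.28 and -0.44 at the same 4 stages) and ss2 feature 11138 (-0.43, 1.78, 0.09 and -0.28) had the same course. opr8 and pck2 were highest at mid-microspore instead: opr8 stood at -0.38, -0.94, 0.74 and -0.34, and pck2 at -0.63, -0.01, 1.90 and 0.27. The change of pck2 exceeded that of the interval after by 3.53 (adjusted p = 0.00526). aldh5, sbp27 and HSP18 had like means in tetrads and at early microspore and stayed on the new side at mid/late microspore. aldh5 stood at -1.42, -1.28, 2.10 and 2.95, sbp27 at 2.15, 2.13, -1.69 and -2.16, and HSP18 feature 10638 at 1.34, 1.35, -2.29 and -2.77. The difference from the interval after was 2.53 for aldh5 and -3.18 for this HSP18 feature. Neither call held under every alternative, and the smallest differences were 1.90 and -1.96. aldh2 rose by 1.28 in the interval before and lost more than that at mid-microspore, where its change minus that of the interval after was -3.33 (adjusted p = 0.00559). The farnesyl pyrophosphate synthase gene fps, of isoprenoid synthesis, was lowest at early microspore (0.29, -1.15, -0.32 and -0.05). Its change from early to mid-microspore, 0.84, was not called by itself. That change minus the change of the interval before was 2.28, and this call did not hold under every alternative (1.10 at the smallest).

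**Figure D4:**
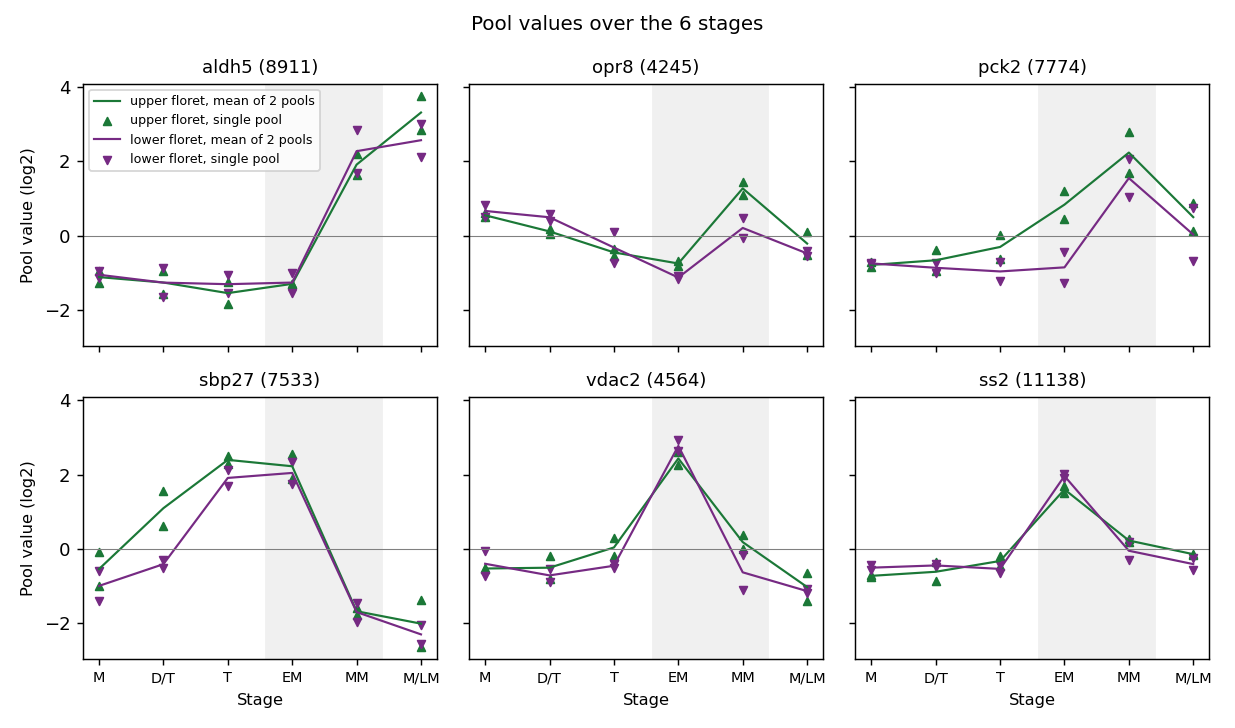
Pool values (log2, centred within each set) of 6 genes over the 6 stages, from meiocyte (M), dyad/tetrad mixed (D/T) and tetrad (T) to early (EM), mid- (MM) and mid/late microspore (M/LM). Triangles are single pools and lines are means of 2 pools, green for upper and purple for lower florets, and the early to mid-microspore interval is shaded: aldh5 is high and sbp27 low at the last 2 stages, and over the last 4 stages opr8 and pck2 are highest at mid-microspore and vdac2 and ss2 at early microspore.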

How the data were processed

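Each of 144 scans of 48 slides held 12160 values with 0 missing. The authors deposited a log ratio per feature and scan, read here as a natural log ratio of the channels and already centred near 0 (scan medians -0.0252 to 0.0327). The base was read from the values: distances between repeated values in low scans matched the natural log 61 times, log2 0 times and log10 5 times. How the authors normalised the ratios is not known here, channel signals are not used here, and the precision of each value is that of the pools.

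Values were converted to log2, scans were centred on their median, and the 3 scans of a slide averaged. Stage slides were read as Cy5 over Cy3 and floret slides as upper over lower, as deposited: with that reading the floret slides matched the difference between upper and lower stage slides (r = 0.418 and 0.301 across features in sets 1 and 2), and turned by the dyes they did not (-0.0497 and 0.0423). Pool values were fitted by least squares within each set (MASS 7.3.60.0.1, R 4.3.3). A linear model with 12 groups and a term for set was fitted over all 24 pools with limma 3.58.1 (11 residual degrees of freedom), and p-values were adjusted by Benjamini-Hochberg over all features. The steps were run on simulated data with independent noise in each pool. That run does not check the p-values where pools of a set vary together. Figures used matplotlib 3.10.9 in Python 3.11.15.

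Gene names came from the platform's array annotation and the RefSeq table of assembly Zm-B73-REFERENCE-NAM-5.0: 6412 had 1 gene, 214 several and 5534 none, and 1141 features of 792 genes had a gene name. Named are the 12 largest called changes per direction with 1 sign in all 4 pairs of set and floret, the 3 largest per direction for each difference between intervals, and up to 4 called features per list. Some members of the vesicle and secretion list are not reported here. Other list members and other features of a gene were added after their values were seen. The pools, lists and rules were chosen with earlier results of these data known. Alternatives were single scans, their median, scaling, centring, floret slides turned, no term for set, subsets of slides and pools, filters, robust variances and each pool left out.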

Additional observations from a re-analysis of the deposited data

Results flagged for a closer look

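For each of the 98 named features the 4 pools of a stage were searched for a single pool that stood apart from the other 3, and in 196 such groups 3 were found. The cut-off is passed by about 1 in 20 groups of 4 independent values. Pools of a stage come from 2 florets and 2 linked sets of slides, so that rate need not hold here. Amy2 (feature 8001) stood at -1.27 in lower-floret early microspore pool 1, against -0.33 to -0.21 in the other 3 early microspore pools. aldh5 (feature 344) stood at 0.99 in upper-floret mid-microspore pool 1, against 1.47 to 1.50 in the other 3 mid-microspore pools. fps (feature 5522) stood at -0.58 in upper-floret early microspore pool 2, against -1.41 to -1.29 in the other 3 early microspore pools. No named feature had both upper-floret pairs moving one way and both lower-floret pairs the other. The selection made this likely beforehand. The 24 genes with the largest changes had to have 1 sign in all 4 pairs, and 97 of the named features were called with the florets averaged. It therefore does not show that the florets agree.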

How the results depend on the processing

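The count of 2988 called features moved by more than 1.5 times with the 4 direct slides alone (1679) and without 1 of 2 pools (upper-floret early microspore pool 1 or lower-floret mid-microspore pool 1), and by less under the other alternatives, with 1954 to 2693 over all 8 pools left out in turn. The floret slides turned by the dyes gave 3986 for the florets averaged, and raised the upper-floret count to 1885, that of the difference from the interval before to 3130 and that of the difference from the interval after to 1682. Scaling the columns to one spread lowered the upper-floret count to 691. With 1 pool left out the counts ranged from 328 to 1015 in upper florets, from 519 to 1610 in lower florets, from 0 to 15 for the floret difference, and from 824 to 2043 and 338 to 695 for the differences from the interval before and after. The cause was not tested.

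Pool numbers pair the pools only by their number and the slides they share. Deviations of same-numbered pools from their group means had r between -0.228 and 0.356 across features for the 6 pairs of groups, and with no replicate block for set the count was 3345, with 0 for the floret difference. A filter chosen after seeing the data, leaving out 1063 features at the low scan's most frequent value on more than 10 of 20 slides, gave 3076.

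Of 97 named features called, 49 kept their call and direction under every alternative in which they were tested, as did 18 of the 24 largest. The filters removed some features from the test. Among them, sbp27, ZmCASP1, Amy2, zrp4 and cyclin4 were tested under 21 and ec2e under 20 of 22 alternatives. Of the 97 features, the sign reversed for 2. CRH (feature 1700) was 0.22 in the low scan alone, and sam2 (feature 759) was -0.010 in the high scan alone. The low scan limits dim features: 600 to 1819 of 12160 held 1 value there, with 16 to 69 in the high scan.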
